A study of Arabidopsis thaliana and Hordeum vulgare and Setaria italica with 13 samples.

Results

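Aspartate tRNAs were taken as the tRNAs with the anticodon GTC (AspGTC) or ATC (AspATC), written in DNA letters. They are 2 of the 52 anticodon families of the tRNA-seq table and 34 of the 532 tRNA sequences listed over the 5 YAMAT-seq libraries. The 34 entries held 23 distinct sequences, all of them AspGTC, with 4 entries in Arabidopsis thaliana, 6 in barley (Hordeum vulgare), 5 in foxtail millet (Setaria italica), 13 in wheat (Triticum aestivum) and 6 in maize (Zea mays). A family was chosen by its anticodon alone, read from the name in A. thaliana and from the middle 3 bases of the 7-base anticodon loop in the grasses.

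The study profiled tRNAs of soil-grown seedlings, 10 days old, grown at 23 ºC under 16 h light and 8 h dark. The labels name no genotype, cultivar or treatment. tRNA-seq covered A. thaliana (seedling leaf and seedling root), soybean (Glycine max), H. vulgare, Sorghum bicolor, S. italica, T. aestivum and Z. mays. YAMAT-seq, in which a Y-shaped adapter joined through the CCA tail selects full-length tRNAs, covered Z. mays, T. aestivum, H. vulgare, S. italica and A. thaliana. Every group was 1 library, so no difference between 2 libraries can be set against a replicate spread. The A. thaliana leaf and root columns held identical values in 52 of 52 families and were counted once, through the leaf column. tRNA-seq values are percent of the tRNA abundance of a library, of unknown depth. YAMAT-seq files held between 6851530 (S. italica) and 19833183 (Z. mays) reads. Whole seedlings mix cell types, and fewer cells of a type cannot be told apart from less RNA per cell; tRNA reads hold no markers to check the labelled tissue.

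Aspartate tRNA carries aspartate to the codons GAU and GAC, and the G at the first anticodon base can pair with both codons by wobble. In bacteria and animals this G is replaced by the modified base queuosine in the tRNAs for Asp, Asn, His and Tyr. Plant cells translate in the cytosol, the plastid and the mitochondrion, and each compartment needs an aspartate tRNA: that of the cytosol comes from nuclear genes and that of the plastid from the plastid gene trnD, and the mitochondrial genomes of many flowering plants carry an aspartate tRNA gene derived from plastid DNA. In yeast and Escherichia coli the anticodon and the discriminator base, the base just before CCA, mark the tRNA for aspartyl-tRNA synthetase.

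The AspGTC reads of YAMAT-seq came from 4 sequences that recurred across species and from 19 listed in 1 species each. The recurring ones are shown first, together with the mitochondrial A. thaliana sequence, since nearly all reads fell on them. Each is given 5′ to 3′ with its CCA end as deposited. Capitals mark the anticodon and, where present, the base that sets a sequence apart from its closest partner (position 17 for the plastid and mitochondrial forms, position 20 for the nuclear ones, counted from 1 at the 5′ end).
Plastid form, 5 species: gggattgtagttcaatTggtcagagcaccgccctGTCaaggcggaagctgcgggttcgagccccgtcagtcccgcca
Mitochondrial form, A. thaliana: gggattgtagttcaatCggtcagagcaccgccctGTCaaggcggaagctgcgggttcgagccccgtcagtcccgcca
A20 form, 3 species: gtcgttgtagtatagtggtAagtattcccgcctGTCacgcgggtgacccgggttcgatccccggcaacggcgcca
G20 form, 4 species: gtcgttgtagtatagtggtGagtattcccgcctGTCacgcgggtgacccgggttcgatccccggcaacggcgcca
Grass form, 3 species: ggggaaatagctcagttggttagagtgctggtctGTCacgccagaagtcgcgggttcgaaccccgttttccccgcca

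The plastid form has 77 bases and the A20 form 75, and they differ by 26 edits, an identity of 66.2%. The mitochondrial form differs from the plastid form by the substitution T17C in the D loop, and the G20 form from the A20 form by A20G, also in the D loop. All 34 entries carry G as the discriminator base. The anticodon loop is ctgtcac in the A20, G20 and grass forms and ctgtcaa in the plastid and mitochondrial ones. Each of these 5 forms has all 21 base pairs of its acceptor, D, anticodon and T stems, with G-T pairs counted as paired.

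In TAIR10.1 the plastid form without CCA matched 1 place, the trnD gene ArthCt095, which spans 29801 to 29874 on the minus strand of the plastid genome. The mitochondrial form matched DA397_mgt17 of the mitochondrial genome, positions 274937 to 275010 on the minus strand. It also matched AT2G07743 on chromosome 2, positions 3255832 to 3255905 on the minus strand, and the reads cannot be divided between these genes. The A20 form matched 21 nuclear tRNA genes, among them AT1G17660 (chromosome 1, 6075820 to 6075891, plus strand) and AT5G59055 (chromosome 5, 23844206 to 23844277, plus strand). The G20 form and the grass form matched 0 places. Types of grass sequences below rest on edit distance to A. thaliana aspartate tRNA genes, and no grass genome was used. A copy of the plastid gene in a grass mitochondrial or nuclear genome could not be told from it.

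AspGTC was the largest family of tRNA-seq in G. max and lay far down the list in S. bicolor. Its share was 25.7% in G. max, 8.04% in H. vulgare, 7.57% in T. aestivum, 7.42% in Z. mays, 1.68% in A. thaliana, 1.30% in S. italica and 0.405% in S. bicolor. G. max stood alone at the top, H. vulgare, T. aestivum and Z. mays lay close together, and the highest value was 63.4 times the lowest. The family ranked 1 of 52 in G. max, 4 in H. vulgare and Z. mays, 5 in T. aestivum, 14 in S. italica, 16 in A. thaliana and 27 in S. bicolor. With 1 library per species and no depth, it cannot be said which neighbours in this order differ beyond error.

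**Figure D1:**
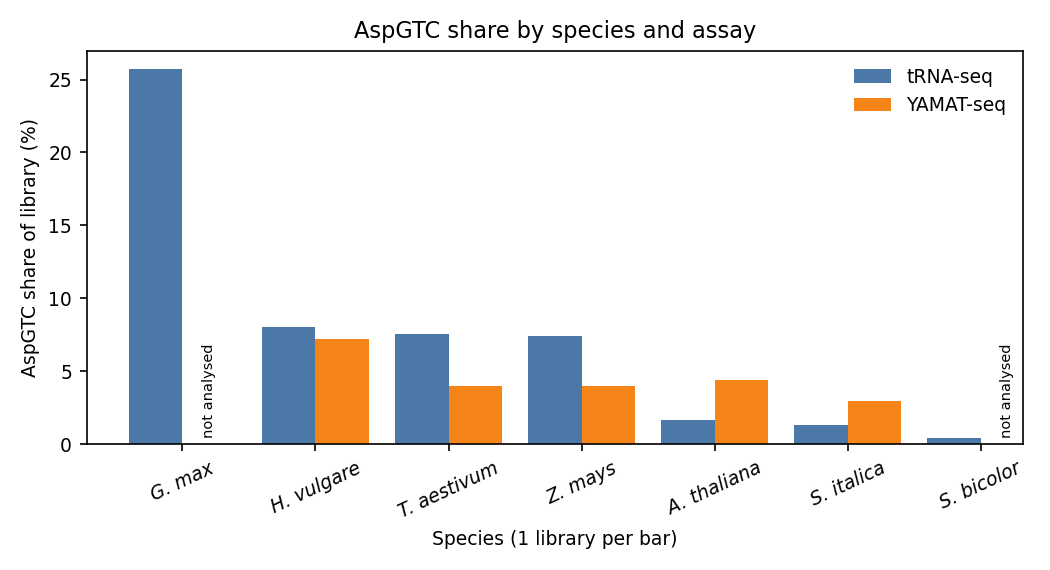
Bars give the AspGTC share of each library in percent (vertical axis) for 7 species in tRNA-seq and 5 in YAMAT-seq, 1 library per bar, ordered by the tRNA-seq share. The tRNA-seq bars run from 25.7% in G. max to 0.405% in S. bicolor, and the YAMAT-seq bars stay between 2.97% and 7.21%.

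Grasses and eudicots overlapped in AspGTC. A. thaliana entered through the column labelled seedling leaf, and the other species through libraries labelled seedling. The 5 grasses had 4.95% ± 3.76 (SD, n = 5 species), and of the 2 eudicots G. max, at 25.7%, lay above all 5 grasses while A. thaliana, at 1.68%, lay among them, above S. italica and S. bicolor. The mean log2(percent + 0.01) was 1.59 in grasses and 2.72 in eudicots, a difference of -1.13. A two-sided exact permutation test over the 7 species gave p = 0.619, and p = 0.825 after Benjamini-Hochberg adjustment over the 52 families; the smallest p this design allows is 0.0476. Groups that did not overlap were found in 8 of 52 families, or 15.4%, and AspGTC was not among them. No family passed an adjusted p of 0.05 (0 of 52, or 0%), and 6 (11.5%) passed an unadjusted p of 0.05 in the exact test. The difference hung on G. max: without it the sign turned, to 0.83.

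AspATC was at or near 0 in both assays. In tRNA-seq it was listed at 0 in 6 species and at 0.00837% in Z. mays. That value is the smallest above 0 in the maize column, was shared by 2 families there, and AspGTC of the same library was 886 times higher. In YAMAT-seq 0 reads of AspATC were listed in each of the 5 species. At these depths 0 reads allow a share of up to 1.51e-05% in Z. mays (3 reads of the total) and up to 4.38e-05% in S. italica. Of the 647 tRNA genes of TAIR10.1 with an annotated anticodon, 0 have ATC.

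In YAMAT-seq AspGTC held 589417 reads in A. thaliana, 4.39% of the library (95% interval 4.37 to 4.40). It held 941737 reads or 7.21% (7.20 to 7.22) in H. vulgare, and 203189 reads or 2.97% (2.95 to 2.98) in S. italica. It held 416373 reads or 3.96% (3.95 to 3.97) in T. aestivum, and 795245 reads or 4.01% (4.00 to 4.02) in Z. mays. H. vulgare was highest and S. italica lowest, and T. aestivum and Z. mays lay closest together. Intervals here and below are exact (Clopper-Pearson). They hold the counting error of reads alone, because each species is 1 library. Amplified reads lacking molecular identifiers do not each stand for 1 molecule, so the intervals may be too narrow even for counting error. By reads AspGTC ranked 2 among the families of Z. mays, 3 in T. aestivum, S. italica and H. vulgare, and 4 in A. thaliana. GlyGCC took 55.3% to 95.1% of the reads of these libraries. Of the reads outside GlyGCC, AspGTC held 82.3% in Z. mays, 25.4% in T. aestivum, 28.3% in S. italica, 30.1% in H. vulgare and 9.81% in A. thaliana.

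The mean AspGTC shares of the assays differed by less than the spread between species, and the order of the species changed. The tRNA-seq values are given by anticodon alone, so whether they cover the same plastid and nuclear forms is not known. Over the 5 species with both, the mean was 4.51% ± 1.60 (SD, n = 5) in YAMAT-seq and 5.20% ± 3.40 (SD, n = 5) in tRNA-seq. The highest share was 2.43 times the lowest in YAMAT-seq and 6.20 times in tRNA-seq. YAMAT-seq was above tRNA-seq by 2.61 times in A. thaliana and 2.29 times in S. italica. The A. thaliana tRNA-seq column was labelled seedling leaf and its YAMAT-seq library seedling, so tissue and assay cannot be told apart in that ratio. Its share was 0.897 of the tRNA-seq share in H. vulgare, 0.541 in Z. mays and 0.523 in T. aestivum. The mean log2 ratio of YAMAT-seq to tRNA-seq, on the scale of percent + 0.01, was 0.12 ± 1.11 (SD, n = 5), and the sign differed among species. Flipping the signs of the 5 ratios in a two-sided exact permutation test gave p = 0.75, and 0.812 after adjustment over the 52 families, with 2 of 5 species higher; the smallest p it allows is 0.0625. Leaving out A. thaliana or S. italica turned the mean ratio to -0.20 and -0.15. AspGTC was 1 of 11 families, or 21.2% of 52, that were higher in some species and lower in others.

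With GlyGCC taken out of both assays and the rest rescaled, the YAMAT-seq share of AspGTC was the higher one in 5 of 5 species, with a mean log2 ratio of 2.74 ± 1.16 (SD, n = 5). The exact sign-flip test gave p = 0.0625, its smallest value, and 0.106 after adjustment. The rescaling moves all remaining families of a library by the same factor. How many others became higher in 5 of 5 species was not counted, so the result is not read as particular to AspGTC. Across all 52 families and without this rescaling, 1 family (1.92%) was higher in YAMAT-seq in all 5 species and 31 (59.6%) were lower in all 5. The number of families past an adjusted p of 0.05 was 0, and past an unadjusted p of 0.05 it was also 0, since 5 species cannot reach it.

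Among the tRNAs for acidic residues and their amides (Asp, Asn, Glu, Gln), AspGTC and GlnTTG were the families of mixed direction. The other 4 of 6 (AsnGTT, GluTTC, GluCTC and GlnCTG) were lower in YAMAT-seq in all 5 species, as were 59.6% of all families. The median of the mean log2 ratios was -4.38 for these 6 families and -3.95 for all 52. AsnGTT, which reads the asparagine codons, lay between 0.725% and 2.38% in tRNA-seq and between 0.0111% and 0.0492% in YAMAT-seq over these species. Of the 4 families whose anticodon starts with G then T, which carry queuosine in bacteria and animals, AsnGTT, HisGTG and TyrGTA were lower in all 5 species, against the same 59.6% of all families, and AspGTC was not. The median of these 4 was -4.89. With 6 and 4 families, neither count is read as particular to its list. HisGTG was at most 0.584% and TyrGTA at most 0.104% of any YAMAT-seq library, against at least 2.97% for AspGTC. TyrGTA was at 0 reads in the 4 grasses, where families were read by the loop rule. That rule missed 72 of 78 annotated tRNA-Tyr genes of TAIR10.1, and the reason for the 0 reads was not tested.

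The plastid form led AspGTC in every species and was the same to the last base in all 5. It held 893018 reads in H. vulgare, 756072 in Z. mays, 491783 in A. thaliana, 401028 in T. aestivum and 168263 in S. italica. This was 94.8%, 95.1%, 83.4%, 96.3% and 82.8% of the AspGTC reads in that order, and 2710164 of 2945961 reads, or 92.0%, over all 5. A. thaliana and S. italica had the lower shares. Among all listed sequences it ranked 2 in Z. mays, 3 in T. aestivum, S. italica and H. vulgare, and 4 in A. thaliana.

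**Figure D2:**
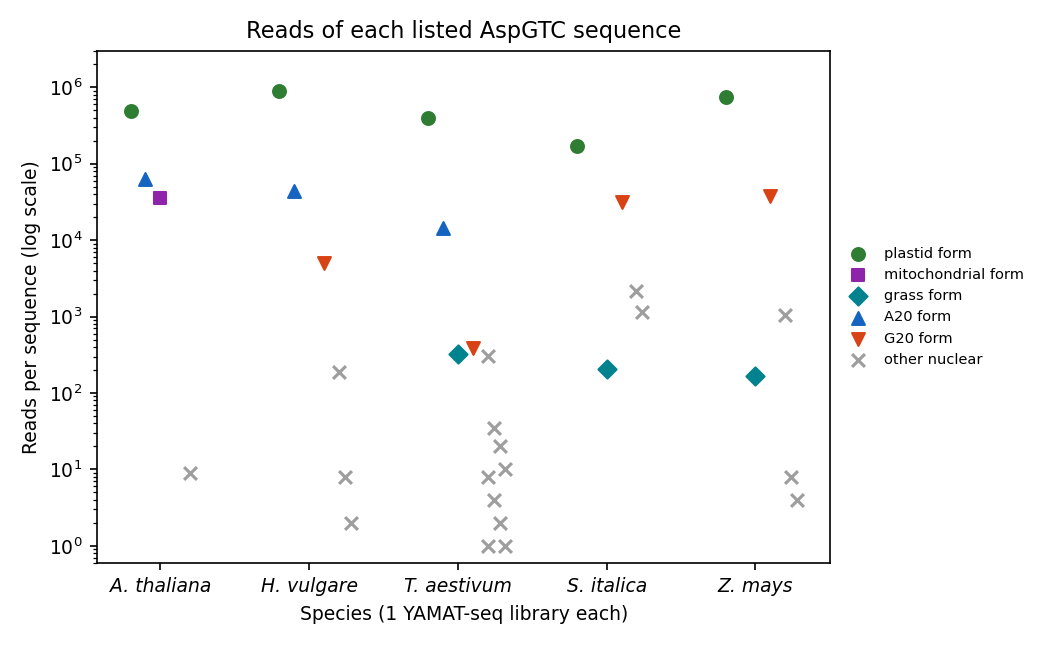
Points give the reads of each of the 34 listed AspGTC sequences (vertical axis, log scale) by species, with 1 YAMAT-seq library per species; colours and marks give the form. The plastid form lies highest in all 5 species, between 168263 and 893018 reads, and other nuclear sequences reach 2184 reads at most.

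The mitochondrial form was listed in A. thaliana, with 35496 reads or 6.02% of the AspGTC reads there. The grass files list no sequence 1 edit from the plastid form. They list the grass form instead, with 326 reads in T. aestivum, 203 in S. italica and 169 in Z. mays, and it is not listed in H. vulgare. Its share of AspGTC was 0.0783% in T. aestivum, 0.0999% in S. italica and 0.0213% in Z. mays. It stood 22 edits from the plastid, 23 from the mitochondrial and 29 from the nearest nuclear aspartate tRNA of A. thaliana. Against the tRNAs of all amino acids it stood 21 edits from the nearest nuclear and also 21 from the nearest organelle tRNA, so its compartment cannot be told from these distances. In the split by aspartate tRNAs alone its few reads count as organelle type. Sequences without reads are not listed, so a missing entry may mean 0 reads or a sequence that the reference tRNAs of that species did not hold.

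Nuclear-type sequences, those nearer to a nuclear than to an organelle aspartate tRNA by at least 3 edits, were the minor part of AspGTC. They held 62138 reads in A. thaliana, 10.5% of AspGTC (95% interval 10.46 to 10.62), and 48719 in H. vulgare, 5.17% (5.13 to 5.22). They held 34723 in S. italica, 17.1% (16.93 to 17.25), 15019 in T. aestivum, 3.61% (3.55 to 3.66), and 39004 in Z. mays, 4.90% (4.86 to 4.95). S. italica stood highest, A. thaliana next, and the other 3 species lay at about 5% or below. Organelle-type reads outnumbered nuclear-type reads 4.85 times in S. italica, 8.49 times in A. thaliana, 18.3 times in H. vulgare, 19.4 times in Z. mays and 26.7 times in T. aestivum. By distance to aspartate tRNAs alone 0 AspGTC reads were left unassigned.

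Although minor within AspGTC, these sequences included the nuclear-type sequence with the most reads in every library. Here sequences were typed by distance to all A. thaliana tRNAs, which left the grass form unassigned (203 reads in S. italica, 326 in T. aestivum, 169 in Z. mays). Nuclear-type reads of all families were a small part of each library. They numbered 194634 of 13439654 reads in A. thaliana, 75797 of 13059898 in H. vulgare and 51986 of 6851530 in S. italica. In T. aestivum they were 30434 of 10517776 reads and in Z. mays 55914 of 19833183. Among all sequences nearer to a nuclear than to an organelle tRNA, AspGTC held 31.9% of the reads in A. thaliana (95% interval 31.72 to 32.13) and 64.3% in H. vulgare (63.93 to 64.62). It held 66.8% in S. italica (66.39 to 67.20), 49.3% in T. aestivum (48.79 to 49.91) and 69.8% in Z. mays (69.37 to 70.14). The nuclear-type sequence with the most reads was an AspGTC in 5 of 5 species. The sequence after it was GluCTC, a glutamate tRNA, in 4 species and GluTTC in T. aestivum. The AspGTC sequence exceeded this runner-up 1.07 times in A. thaliana, 2.38 times in T. aestivum, 2.45 times in S. italica, 3.31 times in H. vulgare and 3.94 times in Z. mays. In A. thaliana the whole GluCTC family held 62060 reads, close to the 62138 nuclear-type AspGTC reads.

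**Figure D3:**
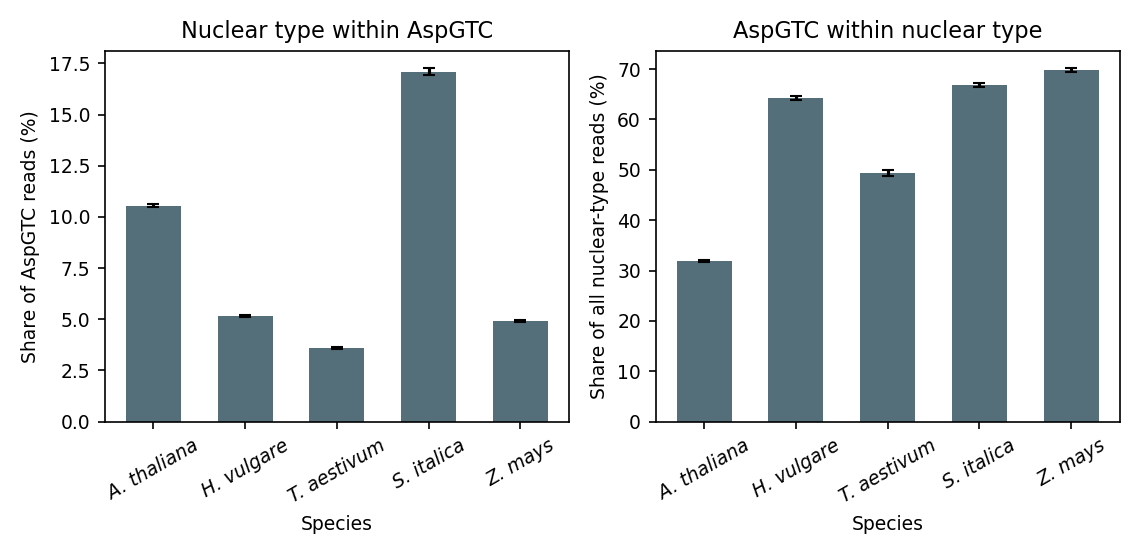
The left panel gives the nuclear-type share of AspGTC reads and the right panel the AspGTC share of all nuclear-type reads, both in percent, in 5 YAMAT-seq libraries. Error bars are exact 95% intervals on the counts. The left bars are highest in S. italica (17.1%) and A. thaliana (10.5%), and the right bars run from 31.9% in A. thaliana to 69.8% in Z. mays.

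The base at position 20 split the nuclear type between species. The A20 form had 62129 reads in A. thaliana, 43542 in H. vulgare and 14245 in T. aestivum, and is not listed in S. italica and Z. mays. The G20 form had 31400 reads in S. italica, 37957 in Z. mays, 4977 in H. vulgare and 387 in T. aestivum, and is not listed in A. thaliana. As a share of the nuclear-type AspGTC reads, the A20 form was 99.99% in A. thaliana, 89.4% in H. vulgare (95% interval 89.1 to 89.6) and 94.8% in T. aestivum (94.5 to 95.2). The G20 form was 90.4% in S. italica (90.1 to 90.7), 97.3% in Z. mays (97.2 to 97.5), 10.2% in H. vulgare (9.95 to 10.49) and 2.58% in T. aestivum (2.33 to 2.84). H. vulgare and T. aestivum, both of the grass subfamily Pooideae, listed both forms with A20 ahead, by 8.75 times and 36.8 times. S. italica and Z. mays, of the subfamily Panicoideae, listed the G20 form alone of the pair. The forms differ by 1 base, and the sources used here do not say how the authors assigned reads with a sequencing error. Whether some reads of a minor form belong to the major one was not tested.

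**Figure D4:**
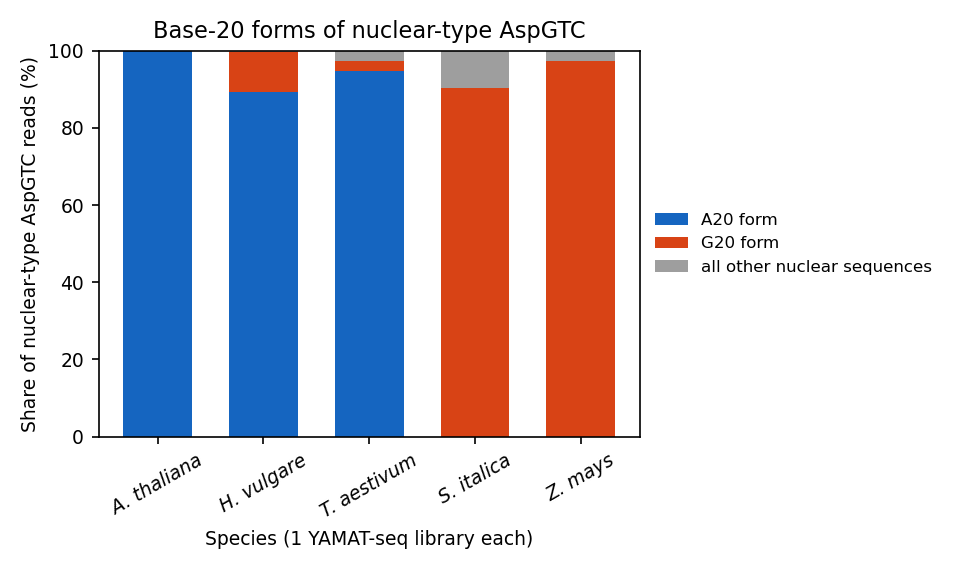
Stacked bars give the A20 form, the G20 form and all other nuclear-type sequences as percent of the nuclear-type AspGTC reads in 5 YAMAT-seq libraries. A20 fills 89.4% to 99.99% in A. thaliana, H. vulgare and T. aestivum, and G20 fills 90.4% and 97.3% in S. italica and Z. mays.

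Apart from these forms, 18 nuclear-type sequences were listed, each in 1 species. They made up 9.57% of the nuclear-type AspGTC reads in S. italica, 2.68% in Z. mays, 2.58% in T. aestivum, 0.411% in H. vulgare and 0.0145% in A. thaliana. Those with the most reads are printed next, with the anticodon and the bases that differ from the closer of the A20 and G20 forms in capitals. Among them Sitalica_tR42 and Zmays_tR179 are among the leading 3 sequences of their species, and Sitalica_tR33 was chosen after its values were seen.
Sitalica_tR42: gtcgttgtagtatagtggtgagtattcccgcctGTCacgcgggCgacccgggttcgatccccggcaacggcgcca
Sitalica_tR33: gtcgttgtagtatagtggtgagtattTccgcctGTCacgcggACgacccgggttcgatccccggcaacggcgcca
Zmays_tR179: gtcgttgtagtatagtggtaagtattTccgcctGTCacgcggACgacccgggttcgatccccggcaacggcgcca

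Sitalica_tR42 had 2184 reads and differs from the G20 form by T44C in the variable loop. Sitalica_tR33 had 1139 reads and carries C27T, G43A and T44C against the G20 form. Zmays_tR179 had 1035 reads and carries the same 3 substitutions against the A20 form, so these sequences of 2 species differ from each other by 1 edit, at position 20. Zmays_tR179 is thus a maize sequence with A at this place, although the A20 form itself is not listed in maize. Positions 27 and 43 face each other in the anticodon stem, and the substitutions replace a C-G pair by a T-A pair. A total of 3 nuclear-type entries had T at 27 and A at 43, and every other one had C and G; the last of the 3, Zmays_tR261, had 4 reads.

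Of the 18 sequences, 15 stood 1 edit from the A20 or G20 form, 14 by a substitution and Hvulgare_tR217 (8 reads) by a deletion. Of the 14 substitutions, 10 were transitions and 4 transversions. The transitions had between 2 and 2184 reads, and no transversion had more than 8. T. aestivum had 9 such sequences with 387 reads in all, of which Taestivum_tR207 (C29T in the anticodon stem) held 306. In H. vulgare Hvulgare_tR46 (T58C in the T loop) held 190. Of 25 substitutions in the nuclear-type sequences, 8 fell in the anticodon stem, 6 in the T stem, 6 in the variable loop, 2 in the D loop, 2 in the T loop and 1 in the acceptor stem. The same change was counted once per sequence. C27T and G43A entered through each of Sitalica_tR33, Zmays_tR179 and Zmays_tR261, and T44C through these and Sitalica_tR42. All 21 stem pairs were kept in 16 of the 20 nuclear-type sequences, and those with an unpaired position had at most 8 reads. Whether reads of a form 1 base away gave rise to such counts was not tested.

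TAIR10.1 annotates 25 aspartate tRNA genes of nuclear type, with 9 on chromosome 1, 3 on chromosome 2, 6 on chromosome 3, 7 on chromosome 5 and 0 on chromosome 4. They have 5 distinct sequences, of which YAMAT-seq listed 2, covering 22 genes. The A20 form with its 21 genes had 62129 reads, or 2959 per gene. The other listed sequence, at_tR45, differs by A46G in the variable loop, matched AT1G20210 (chromosome 1, 7004514 to 7004585, plus strand) and had 9 reads. Whether these 9 are misread copies of the A20 form was not tested. Reads cannot be divided among the 21 identical genes. The 3 genes whose sequence is not listed are AT1G43820 (T23G, C61T and G70A), AT2G33650 (C68A) and AT5G32017 (G7A, C38T and G56A). Each of these keeps 20 of the 21 stem pairs, where both listed sequences keep 21. If the reference held such a sequence, 0 reads allow it up to 2.23e-05% of this library, taken as 3 reads of the total and not as a Clopper-Pearson limit.

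The tRNA-seq families whose shares followed AspGTC most closely over the 7 species were SerAGA, GlnTTG and ArgCCT, among the 34 other families above 0 in all 7. Pearson's r of log2(percent + 0.01) was 0.79 for SerAGA, 0.79 for GlnTTG and 0.63 for ArgCCT, and it was lowest, at -0.91, for ArgCCG. SerAGA, a serine tRNA, was 16.0% in G. max and 2.75% or less in the other 6 species. ArgCCG, an arginine tRNA, was 0.0586% in G. max and 0.329% in S. bicolor, the reverse of the order of AspGTC. These values describe 7 libraries whose shares each sum to nearly the same total, from 98.05% in S. bicolor to 100.47% in A. thaliana. Beside AspGTC, ArgCCG was the only family named here with G. max and S. bicolor at opposite ends. G. max was highest in SerAGA and ArgCCT, but S. italica was lowest in SerAGA and Z. mays in ArgCCT. S. bicolor was lowest in GlnTTG, but T. aestivum was highest there.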

How the data were processed

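For 8 tRNA-seq libraries the authors deposited percent of total tRNA abundance by anticodon. For 5 YAMAT-seq libraries the authors deposited, per the file headers, a count of reads for each full tRNA sequence; 12 PCR cycles were used, per the labels' protocols. The submitters' processing notes name cutadapt and TAIR10. The sources used here do not give the aligner, the reference tRNAs of each species or the treatment of multiple matches. Adapter joining, modified bases that stop reverse transcription and amplification can favour some tRNAs, so shares are of sequenced cDNA.

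The loop rule gave the named anticodon in 143 of 143 A. thaliana sequences and the annotated one in 560 of 647 TAIR10.1 genes. Of the 87 misses 72 were tRNA-Tyr, 11 tRNA-Met and 0 tRNA-Asp, and it called 0 other genes GTC or ATC. Sequences that keep an intron are not read. Edit distances (edlib 1.3.9.post1) were taken without CCA, and coordinates are exact matches in TAIR10.1. Intervals are 95% Clopper-Pearson (scipy 1.17.1). Permutation tests were two-sided and exact over species on log2(percent + 0.01), adjusted over 52 families, and were tested on simulated data. Sequences named were those in 2 or more species and the 3 with most reads per species; others were named after their values were seen. Families, lists and members were chosen with earlier results of these data known. The share of AspGTC among all nuclear-type reads, stem pairs and substitutions by arm were added after the data were seen.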

Additional observations from a re-analysis of the deposited data

Results flagged for a closer look

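The AspGTC difference between the assays pointed in opposite directions in different species, which is what drew attention to it. The log2 ratio of YAMAT-seq to tRNA-seq, on the scale of percent + 0.01, was 1.38 in A. thaliana and 1.19 in S. italica. It was -0.16 in H. vulgare, -0.93 in T. aestivum and -0.89 in Z. mays. Each value compares 1 library with 1 library, and the difference between species was not tested. In A. thaliana the labels also differ, with seedling leaf in tRNA-seq and seedling in YAMAT-seq.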

How the results depend on the processing

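The mean log2 ratio of AspGTC between assays ranged from -0.20 to 0.38 when each species was left out in turn; it turned negative without A. thaliana (-0.20) and without S. italica (-0.15), because these are the species with a positive ratio. The difference between grasses and eudicots ranged from -3.10 to 0.83 with each species left out, and turned positive without G. max (0.83), which leaves 1 eudicot. The adjusted p of the exact tests stayed between 0.106 and 0.995 over 10 alternatives for the assays and between 0.656 and 1 over 11 for the species groups; with 1 eudicot or 4 pairs such p-values cannot be small. Taking GlyGCC out of both assays raised the mean log2 ratio from 0.12 to 2.74. The species with a higher YAMAT-seq share rose from 2 to 5 of 5, so that H. vulgare, T. aestivum and Z. mays turned. The adjusted p of the sign-flip test was 0.106, and with 5 pairs it cannot fall below 0.05. Taking GlyGCC out moved the YAMAT-seq share of AspGTC to 82.3% in Z. mays, 25.4% in T. aestivum, 28.3% in S. italica, 30.1% in H. vulgare and 9.81% in A. thaliana. How many other families turned in the same way was not counted. In all, 50 of 58 alternatives kept the direction of the main value and its side of the threshold, or moved by less than the counting interval; the assay ratio without GlyGCC is among them only because its mean was already positive. They include pseudocounts of 0.001, 0.1 and 1, a minimum of 10 reads and gaps of 1 and 5 edits. The alternatives of the AspGTC share among nuclear-type reads were chosen after seeing the data. Some of the 50 could not change. The sign-flip test over 5 species allows no p below 0.0625, so no alternative for the assays could cross the threshold of 0.05. Every AspGTC sequence lies more than 5 edits nearer to 1 class, so the gap could not alter the nuclear share of AspGTC. Entries with fewer than 10 reads hold too few reads to move a share. The number of recurring sequences was 4 with and without a minimum of 10 reads. No paired analysis was possible because every group is 1 library and the labels give no replicate numbers, apart from the pairing of the assays by species that the sign-flip test already uses. The tRNA-seq depth is unknown, and 10 of the 34 YAMAT-seq entries had fewer than 10 reads.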

Other observations

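The species with the larger nuclear-type share of AspGTC reads were those in which AspGTC was the smaller part of tRNA-seq. A. thaliana and S. italica had 10.5% and 17.1% nuclear-type AspGTC reads in YAMAT-seq and AspGTC shares of 1.68% and 1.30% in tRNA-seq. H. vulgare, T. aestivum and Z. mays had 5.17%, 3.61% and 4.90%, and shares of 8.04%, 7.57% and 7.42%. The 5 species are too few for a correlation, the pattern was noticed after the values were seen, and it was not tested.

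As a share of all YAMAT-seq reads, nuclear-type AspGTC was 0.462% in A. thaliana, 0.507% in S. italica, 0.373% in H. vulgare, 0.197% in Z. mays and 0.143% in T. aestivum. Organelle-type AspGTC was 3.92%, 2.46%, 6.84%, 3.81% and 3.82% in the same order.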
